A study of Mus musculus with 15 samples.

Results

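Small nucleolar RNAs (snoRNAs) were measured in 15 libraries of total RNA from mouse bone marrow. The deposited table holds 93 rows of the biotype snoRNA, and the 32 described here had a value of at least 10 normalized counts in at least 4 of the 15 libraries. Normalized counts are estimated reads per gene divided by a size factor of the library. By gene name, 6 of the 32 are box C/D RNAs (names starting with Snord, of 10 such rows) and 5 are H/ACA RNAs (names starting with Snora, of 18 rows). The other 21 (of 65 rows) carry predicted names, the name U3, the name Scarna10 or no name. The 32 rows lie at 29 positions, because 3 pairs of rows of the processing RNA U3 share a start.

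The libraries fall into 3 groups. The AML group holds 7 marrows with acute myeloid leukaemia from NUP98-NSD1/FLT3-ITD transgenic mice. These mice carry a fusion of a nucleoporin with a histone methyltransferase together with an internal tandem duplication of the receptor FLT3. The reference groups come from Wild Type mice and hold 4 samples of whole marrow and 4 of lineage-negative marrow, the latter depleted of cells with mature lineage markers. The labels give no age, sex or promoter of either transgene, and do not say which libraries, if any, share an animal, so p-values measure the spread between these libraries.

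SnoRNAs are short noncoding RNAs that are mostly cut from the introns of host genes and work in the nucleolus or, for the related small Cajal body RNAs, in Cajal bodies. Box C/D RNAs bind the methyltransferase fibrillarin and guide 2′-O-methylation, and H/ACA RNAs bind the pseudouridine synthase dyskerin and guide pseudouridylation of ribosomal and spliceosomal RNA. A few, among them U3 (the Snord3 genes) and U17 (Snora73a and Snora73b), act in the cleavage of the ribosomal RNA precursor instead. Growing cells make many ribosomes, and snoRNA levels have been studied in leukaemia.

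The sequences of the members on which the results turn were taken from the transcripts of GENCODE M21 by gene identifier, on the genome build GRCm38. Scarna10 (U85) had the highest mean per kilobase of the members in every group and is a composite RNA that carries both box types and guides modification of the spliceosomal RNA U5. It lies on chromosome 6 inside the condensin gene Ncapd2, on the minus strand, and the first 300 of its 325 bases (chr6:125186384-125186683) are shown with the C box motif TGATGA in capitals, while its D box motif CTGA starts at base 317:
Scarna10: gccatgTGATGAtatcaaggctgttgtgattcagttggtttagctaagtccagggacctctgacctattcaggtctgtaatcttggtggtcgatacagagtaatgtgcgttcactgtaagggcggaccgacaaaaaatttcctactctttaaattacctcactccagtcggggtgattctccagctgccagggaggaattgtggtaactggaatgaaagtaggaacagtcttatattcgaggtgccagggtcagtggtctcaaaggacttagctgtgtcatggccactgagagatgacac
Snora73a at chr4:132352775-132352979 and Snora73b at chr4:132352322-132352526 lie in Rcc1, the gene of the nucleotide exchange factor of Ran, on the minus strand. Gm26448 at chr9:120129351-120129553 lies on the plus strand in the ribosomal protein gene Rpsa. They are shown because they share most of their bases, with capitals for the ACA motif that ends 3 bases before the 3′ end:
Snora73a: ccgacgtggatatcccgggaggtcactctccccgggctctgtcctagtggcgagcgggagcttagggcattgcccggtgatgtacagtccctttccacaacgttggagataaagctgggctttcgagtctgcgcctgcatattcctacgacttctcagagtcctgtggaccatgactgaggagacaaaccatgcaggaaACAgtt
Snora73b: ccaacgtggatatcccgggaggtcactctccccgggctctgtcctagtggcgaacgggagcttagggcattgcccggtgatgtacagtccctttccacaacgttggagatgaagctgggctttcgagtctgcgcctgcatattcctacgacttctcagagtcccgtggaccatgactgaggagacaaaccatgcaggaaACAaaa
Gm26448: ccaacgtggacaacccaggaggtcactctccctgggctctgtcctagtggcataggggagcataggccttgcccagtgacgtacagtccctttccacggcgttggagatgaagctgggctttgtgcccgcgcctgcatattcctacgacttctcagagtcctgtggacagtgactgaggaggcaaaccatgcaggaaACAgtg
Gm26447 at chr16:23111301-23111429 (plus strand, in the helicase gene Eif4a2) had AML libraries that all lay above the lineage-negative libraries, and neither motif was found in it in the positions searched:
Gm26447: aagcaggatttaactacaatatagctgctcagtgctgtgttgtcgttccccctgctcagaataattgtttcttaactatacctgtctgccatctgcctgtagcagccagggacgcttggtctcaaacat
For the box C/D class, Snord17 at chr2:144265979-144266216 (minus strand, in the sorting nexin gene Snx5) and the U3 gene Snord3a at chr10:40258467-40258679 (plus strand, with no host) are shown with TGATGA and CTGA in capitals:
Snord17: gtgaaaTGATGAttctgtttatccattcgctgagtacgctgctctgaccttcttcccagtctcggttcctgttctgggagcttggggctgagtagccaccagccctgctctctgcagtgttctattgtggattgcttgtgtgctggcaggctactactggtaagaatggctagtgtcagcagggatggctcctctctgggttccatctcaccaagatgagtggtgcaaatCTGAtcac
Snord3a: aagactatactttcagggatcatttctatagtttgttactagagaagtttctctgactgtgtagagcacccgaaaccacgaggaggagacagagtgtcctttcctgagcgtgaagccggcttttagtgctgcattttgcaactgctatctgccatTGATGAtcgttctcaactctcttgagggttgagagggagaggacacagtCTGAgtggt

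Of the 32 members, 25 had a sequence of the same length in that annotation. The motif ACA stood 3 bases from the 3′ end in 12 of them, including 8 with other names. TGATGA within the first 20 bases together with CTGA within the last 20 bases was found in 7, including 3 with other names (Scarna10, Gm23547 and Gm25835), and 6 had neither pattern. On the transcript strand, the share of all 1507 snoRNA transcripts of GENCODE M21 with the ACA pattern was 18.3%, and 20.5% had the C and D pattern. Among protein-coding transcripts these shares were 2.37% and 0.0221%. Snord3a holds its TGATGA at base 156, outside the first 20 bases. Of the 300 sequence pairs, 4 were over 80% identical. Gm25791 and Gm26236 shared 97.8%, Snora73a and Snora73b 96.6%, and Gm26448 shared 88.3% with Snora73a and 87.8% with Snora73b, so reads may have been split between these genes and their separate levels are uncertain.

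The table holds no gene shorter than 102 bases, and in GENCODE M21 87 of the 98 genes named Snord are shorter than that. The box C/D class described here is therefore the long end of its family, and the imprinted Snord113 to Snord116 clusters, the Rpl13a cluster and the Gas5 cluster are not analysed here. Snord118 (U8), Snord13 (U13) and Snord22 have rows that stayed below the filter, with highest values of 4.54, 4.09 and 14.2 normalized counts. Just inside the filter were Gm26236 (at least 10 in 4 libraries, highest 19.1), Gm24119 (5 libraries, highest 17.6) and Snora57 (6 libraries, highest 33.0). Just outside it, with 3 libraries each, were Gm22270, Gm26165, SNORA74, Snora43 and an unnamed gene (ENSMUSG00000119011), with highest values from 22.0 to 31.3. Among the members, 12 reached 10 in all 15 libraries and 28 in at least 1 library of every group, while 7 passed the filter only because AML libraries were counted (Snora57, Snora78, Gm22422, Gm24119, Gm24336, Gm25776 and Gm26236).

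Estimated depth in units of 1e6 reads ran from 20.3 to 35.1 for AML, from 11.4 to 17.2 for whole marrow and from 20.3 to 28.1 for lineage-negative marrow. In single libraries 3 reads corresponded to 1.96 to 4.09 normalized counts, a floor that covers counting error only. Erythroid marker genes had library sums between 574597 and 1399910 normalized counts in whole marrow, between 303 and 22179 in AML and between 4507 and 33210 in lineage-negative marrow. Sums of 5 progenitor markers lay at 15722 to 20108 for lineage-negative marrow, at 2411 to 8467 for AML and at 1307 to 2327 for whole marrow. Sums of 4 monocyte and macrophage markers lay at 32121 to 52153 for AML, at 8382 to 18798 for whole marrow and at 7779 to 14293 for lineage-negative marrow. Sums of 8 neutrophil markers lay at 420465 to 1342770 for AML, at 417468 to 1118050 for whole marrow and at 89559 to 153874 for lineage-negative marrow. In AML against lineage-negative marrow 6 of the 8 were called higher and 1 lower, where 17.7% and 12.5% of all genes tested were. Sums of 5 B cell markers lay at 435 to 4847 for AML, at 2893 to 6235 for whole marrow and at 301 to 509 for lineage-negative marrow. The part of these differences in cell content in the results was not tested. In bulk RNA, fewer cells of a type and less RNA per cell cannot be told apart. Olfactory receptor genes, taken as a gauge of background, averaged per kilobase of exon between 1.85 and 3.41 normalized counts for whole marrow, between 0.0966 and 0.958 for AML and between 0.107 and 0.141 for lineage-negative marrow. Per kilobase, the mean of every member lay above the highest of these background levels in AML and lineage-negative marrow, and 31 of 32 did so in whole marrow. The exception was Gm24119, at 2.42 per kilobase in whole marrow. The filter of at least 10 in at least 4 libraries largely fixed this outcome for such short genes, so it is no separate evidence of signal. Olfactory genes also do not gauge reads that come from a host gene.

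The first comparison set leukaemic marrow against lineage-negative marrow, the normal fraction richer in immature cells. Scarna10, the H/ACA RNAs Snora73a, Snora73b and Snora74a (U19), and Gm23262, Gm26447 and Gm26448 were higher in AML, and no member was lower. Calls needed an adjusted p below 0.05 together with a log2 difference of 1 or more in size, from limma on log2(normalized count + 1) with Benjamini-Hochberg adjustment over 18941 genes. By this rule 3 of 5 H/ACA RNAs, 1 of 6 box C/D RNAs and 10 of 21 members with other names were called higher, 14 of 32 in all, where 17.7% of all genes tested were called higher. These calls include both rows named U3, which held the same value in every library. Snora73a, Snora73b and Gm26448 share most of their bases, so their calls are not independent either. None of the 32 was called lower by limma, and none had an unadjusted p under 0.05 in that direction, where 12.5% of all genes were called lower. The median log2 difference was 1.77 for H/ACA RNAs, 1.05 for box C/D RNAs and 1.80 for the other names, against 0.02 for all genes tested. The medians of the H/ACA RNAs and the other names are the values of Snora78 and Gm25776. Both passed the filter only because AML libraries were counted, and Gm25776 is among the 14 called. Of the 25 members that pass without AML libraries, 13 were called higher, with a median log2 difference of 1.80. These values describe members that were chosen by their level, and 7 of the 12 members that reached 10 in every library were called higher.

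Scarna10 was at 15218, 28596, 9932, 59803, 12635, 13414 and 4811 normalized counts in AML replicates 1 to 7. In lineage-negative marrow it was at 2834, 2048, 1650 and 3021, and in whole marrow at 4965, 8654, 6554 and 5810. Every AML library lay above every lineage-negative library, while AML replicate 7 fell below all 4 whole marrows. The mean was 20630 ± 18744 (SD, n = 7) in AML against 2388 ± 648 (SD, n = 4) in lineage-negative marrow, a log2 difference of 2.74 ± 0.44 (SE; limma, adjusted p = 4.41e-05). Scarna10 made up 55.2% to 76.0% of the summed counts of the 32 members in AML libraries and 36.4% to 55.6% in lineage-negative libraries. In whole marrow libraries its share was 67.1% to 83.5%, so a high share was not particular to AML.

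Snora73a was at 1713, 2081, 1132, 4704, 919, 1741 and 585 in AML replicates 1 to 7, and at 274, 561, 434 and 523 in lineage-negative marrow. The groups did not overlap, although AML replicate 7 stood only slightly above the highest lineage-negative library, and the log2 difference was 1.80 ± 0.42 (SE; limma, adjusted p = 0.0014). Its neighbour in the same host, Snora73b, ranged from 380 to 2376 with a median of 736 in AML and was at 399, 397, 227 and 280 in lineage-negative marrow, a log2 difference of 1.40 ± 0.42 (SE; limma, adjusted p = 0.00987). Gm26448, which resembles them in sequence, ranged from 110.0 to 879 in AML and was at 59.0, 132, 87.3 and 117 in lineage-negative marrow, a log2 difference of 1.80 ± 0.50 (SE; limma, adjusted p = 0.00629). For Snora73b and Gm26448 the lowest AML library lay within the lineage-negative range.

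Snora74a (U19), the remaining called H/ACA RNA, ranged from 122 to 1174 with a median of 334 in AML and was at 25.8, 99.8, 63.4 and 154 in lineage-negative marrow. Its log2 difference was 2.15 ± 0.53 (SE; limma, adjusted p = 0.00246), with AML replicates 3 and 7 below the highest lineage-negative library. Gm26447 was at 185, 270, 43.9, 346, 104, 116 and 34.6 in AML and at 22.5, 26.1, 22.4 and 20.7 in lineage-negative marrow, with no overlap and a log2 difference of 2.32 ± 0.57 (SE; limma, adjusted p = 0.00221). Gm23262, in the translation factor gene Eif4g2, was at 818, 1368, 617, 2354, 428, 731 and 182 in AML against 275, 169, 103 and 144 in lineage-negative marrow, with only replicate 7 inside that range, and a log2 difference of 2.13 ± 0.50 (SE; limma, adjusted p = 0.00169). Scarna10, Snora73a and Gm26447 were the only members whose AML libraries all lay above all lineage-negative libraries, 3 of 32, where 17.0% of all genes tested were separated in that direction.

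The other called members had adjusted p-values from 0.0125 to 0.0495 by limma. They were the box C/D RNA Snord94, which guides methylation of the spliceosomal RNA U6, with a log2 difference of 1.38, Gm22154 (1.89), Gm25776 (1.80), Gm25791 (2.30), an unnamed gene inside Gsr (ENSMUSG00000119577, 2.51), and both U3 rows (3.25 each). The H/ACA RNAs that did not pass the test were Snora57 at 1.17 and Snora78 at 1.77. Among box C/D RNAs, Snord15a (0.95), Snord15b (2.74), Snord17 (0.76), Snord3a (0.89) and Snord3b4 (1.15) did not pass either. Lineage-negative replicate 1 stood apart for 3 of these: Snord17 was at 1795 there and at 234, 209 and 357 in the other libraries of the group. Snord15a was at 88.0 against 12.3, 11.5 and 11.1, and Snord15b at 269.6 while its values in replicates 2 to 4 were listed at 1.28e-13, 1.42e-08 and 0.0027. Without that library 4 of 6 box C/D RNAs were called higher in AML. Gm24119 was the only member with a negative difference, −0.53 ± 0.61 (SE), and did not pass the test.

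**Figure D1:**
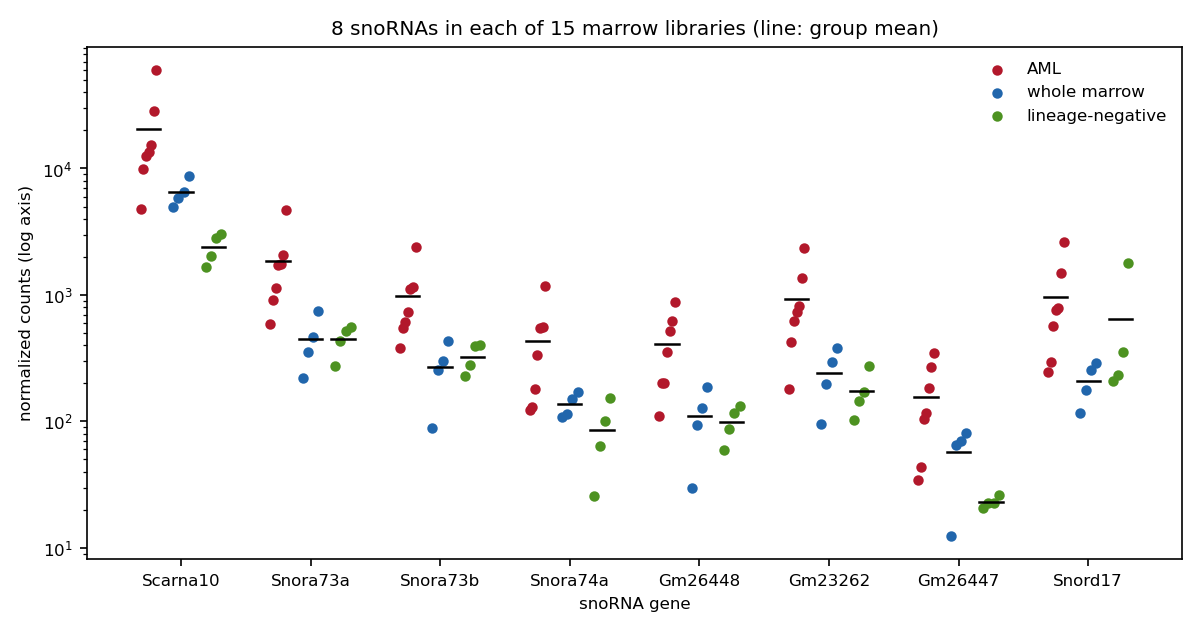
Normalized counts (log axis) of 8 snoRNAs in each of 15 libraries, with a horizontal line at each group mean. Scarna10, Snora73a and Gm26447 show AML points that all lie above the lineage-negative points, and lineage-negative replicate 1 stands at 1795 for Snord17.

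Against whole marrow, the unfractionated normal tissue, 4 of 5 H/ACA RNAs, 4 of 6 box C/D RNAs and 11 of 21 members with other names were called higher in AML. That is 19 of 32, where 27.3% of all genes tested were called higher. These calls include every U3 row, and Snora73a, Snora73b and Gm26448. Reads may be shared within each of these sets, so their calls are not independent. The 19 include Snora78 and Gm24119, which passed the filter only because AML libraries were counted, and 17 of the 25 members that pass without AML libraries were called. No member was called lower by limma or had an unadjusted p under 0.05 in that direction, where 11.3% of all genes were called lower. The whole table moved in this comparison: the median log2 difference of all genes tested was 0.67, and it was 1.75 for H/ACA RNAs, 1.67 for box C/D RNAs and 1.28 for the other names. The H/ACA median is the value of Snora78. Over the 25 members that pass without AML libraries, the median was 1.73. With TMM scaling (a trimmed mean of log ratios), which brought the median of all genes to 0.0066, 2 H/ACA RNAs, 1 box C/D RNA and 3 other members were called higher, where 4.92% of all genes were. All 32 differences were positive with the deposited scaling and 28 of 32 with TMM. With TMM the median of the 25 members that pass without AML libraries was 1.05.

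Snora73a was at 219, 743, 353 and 469 in whole marrow, and all AML libraries but replicate 7 lay above that range. The log2 difference was 1.89 ± 0.42 (SE; limma, adjusted p = 0.000667), or 1.22 above the median of all genes. Snora73b was at 88.7, 430, 256 and 299 in whole marrow and had a log2 difference of 1.84 ± 0.42 (SE; limma, adjusted p = 0.000907). Both Snora73 genes were called under every alternative setting tried, TMM included. Scarna10 differed by 1.28 ± 0.44 (SE; limma, adjusted p = 0.0168), and without AML replicate 4 its difference was 0.96, under the size that counts as called. With TMM scaling its difference was 0.60 and the call was lost (limma, adjusted p = 0.325). It also lost the call without whole marrow replicate 1. The other H/ACA RNAs were Snora78 (1.75, called), Snora74a (1.25, called) and Snora57 (1.28, not called). Snora78 and Snora74a lost the call with TMM scaling (limma, adjusted p = 0.184 and 0.448).

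Among box C/D RNAs, Snord17 was at 758, 1484, 571, 2635, 294, 789 and 246 in AML and at 116, 291, 176 and 255 in whole marrow. AML replicate 7 lay within the whole marrow range and replicate 5 just above it, and the log2 difference was 1.85 ± 0.58 (SE; limma, adjusted p = 0.00931). Snord15a, from the ribosomal protein gene Rps3, ranged from 20.5 to 99.7 in AML and was at 7.18, 22.8, 13.6 and 13.6 in whole marrow, a log2 difference of 1.48 ± 0.53 (SE; limma, adjusted p = 0.0211). Snord15b, from the same host, was at 40.2, 140, 1.99, 364, 18.6, 84.9 and 0.0027 in AML and at 11.5, 60.1, 11.2 and 50.5 in whole marrow, with wide overlap and a log2 difference of 0.04 ± 1.51 (SE). Snord94 differed by 0.84 and did not pass the test. Snord17 and Snord15a lost the call with TMM scaling (limma, adjusted p = 0.141 and 0.232).

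The named U3 gene Snord3a was the only member whose AML libraries all lay above all whole marrow libraries, 1 of 32, where 35.8% of all genes tested were separated in that direction. It was at 87.1, 42.4, 52.4, 82.9, 29.3, 32.3 and 95.4 in AML and at 1.00, 10.4, 25 and 22.0 in whole marrow, a log2 difference of 2.37 ± 0.58 (SE; limma, adjusted p = 0.00158). Snord3b4 (2.19), both U3 rows (2.79 each), the unnamed genes ENSMUSG00002074875 (2.62) and ENSMUSG00002075453 (2.26), Gm25835 (2.55), Gm25791 (2.25), Gm24119 (2.20), Gm26448 (1.86), Gm23262 (1.73) and Gm26447 (1.32) were also called. The members with other names that did not pass were Gm23547 (0.99), Gm22154 (1.27), Gm22422 (1.06), Gm24336 (0.41), Gm25117 (0.76), Gm25776 (0.56), Gm26236 (0.60), Gm26397 (0.94) and the unnamed genes ENSMUSG00000119577 (0.19) and ENSMUSG00000119662 (0.82). Of the members called in this paragraph, only Snord3a, ENSMUSG00002074875, ENSMUSG00002075453 and Gm24119 kept the call with TMM scaling. With that scaling the differences of Snord15b, Gm24336, Gm25776 and ENSMUSG00000119577 turned negative. Whole marrow replicate 1 held the lowest value of its group for 29 of 32 members, and without it 2 box C/D RNAs, 2 H/ACA RNAs and 5 other members were called higher. The total of that library was 1.02e+07 normalized counts, against 1.79e+07 to 1.93e+07 in the other whole marrows. Its low values are therefore not particular to snoRNAs, and the share over all genes was not taken.

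**Figure D2:**
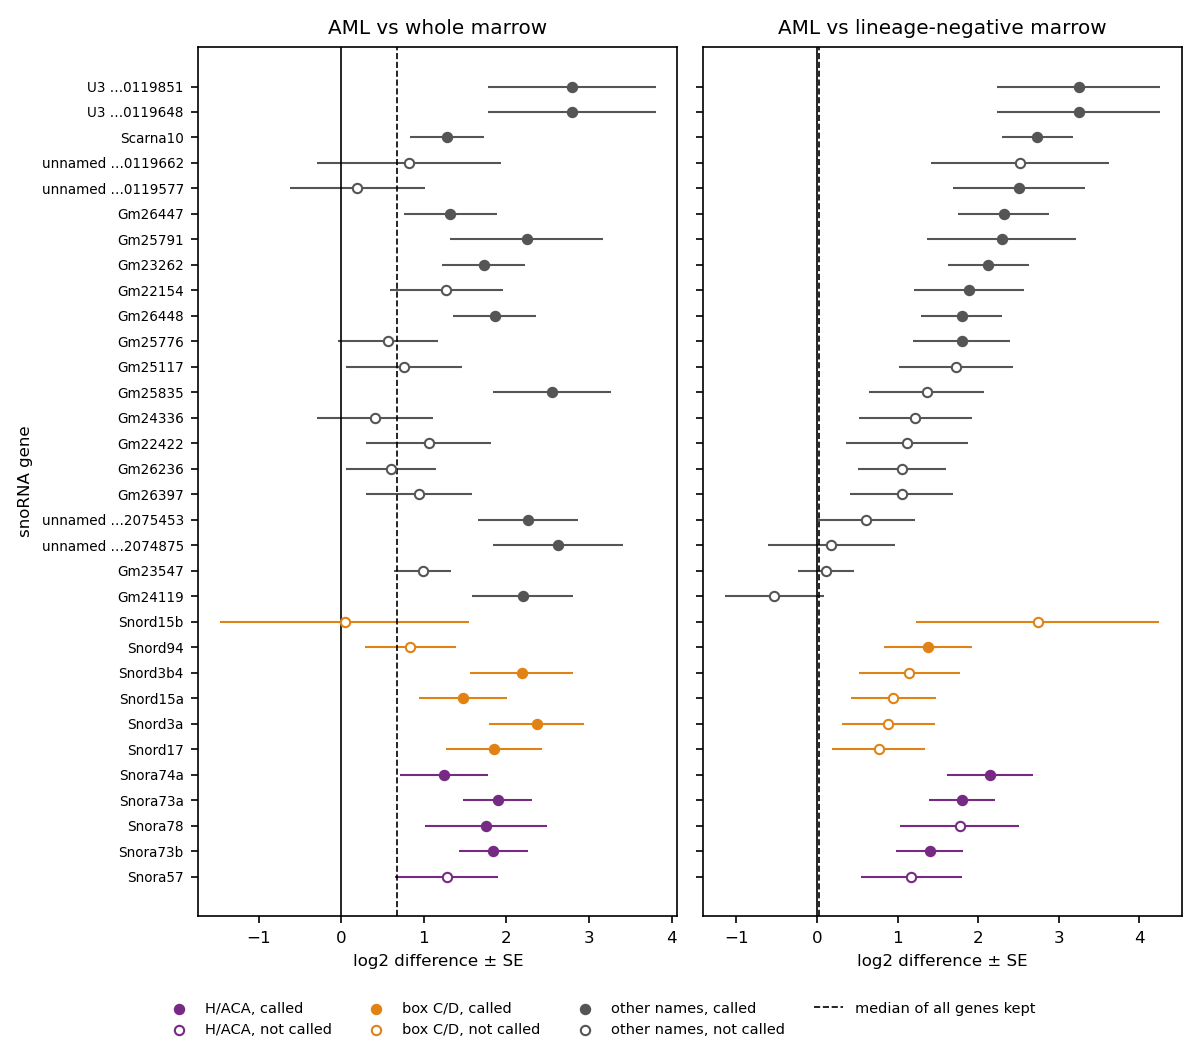
Log2 differences with standard errors of the 32 snoRNAs for AML against whole marrow (left) and against lineage-negative marrow (right), filled where called and coloured by class. The dashed line is the median of all genes tested, 0.67 on the left and 0.02 on the right, and all points but Gm24119 on the right lie above 0, although with TMM scaling 28 of 32 do on the left. The comparisons share the 7 AML libraries.

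U3 is the box C/D RNA that base-pairs with the ribosomal RNA precursor on the way to the small subunit. The 6 rows of U3 lie at 3 starts, given as in the table: chromosome 10 at 40134463 (Snord3a and ENSMUSG00002074875), chromosome 11 at 87353112 (Snord3b4 and a U3 row) and chromosome 11 at 87339453 (ENSMUSG00002075453 and a U3 row). Both U3 rows held the same value in all 15 libraries, and the sums of the paired rows at the chromosome 11 positions were within 2% of each other in 10 of 15 libraries, so reads may have been shared between the copies. In the other 5 libraries the sum at 87339453 was the higher one, with the largest ratio in lineage-negative replicate 1 (152 against 50.1), and it was also higher in lineage-negative replicates 2 and 3 and AML replicates 1 and 3. With the rows of a position summed, which was added after seeing the data, AML was higher than whole marrow at all 3 positions. The sum at chromosome 10 was 209, 119, 276, 149, 87.8, 58.0 and 217 in AML and 1.80, 57.6, 44.9 and 39.6 in whole marrow, with the lowest AML library just above the highest whole marrow, and a log2 difference of 2.60 ± 0.69 (SE; limma, adjusted p = 0.00297). At chromosome 11 the summed differences were 2.36 ± 0.67 (SE; limma, adjusted p = 0.00506) and 2.41 ± 0.65 (SE; limma, adjusted p = 0.00335).

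Against lineage-negative marrow the summed U3 positions differed by 0.29, 1.48 and 0.94, and none was called, so the calls of the separate U3 rows were lost on summing. Lineage-negative libraries varied widely at these positions: the chromosome 10 sum was 46.3, 346, 178 and 62.0. Within AML, the U3 sums were highest in replicate 3 and lowest in replicate 6, an order unlike that of Scarna10.

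Lineage-negative marrow was then set against whole marrow to see how the members differ between the normal samples. Scarna10 was lower in lineage-negative marrow by 1.46 ± 0.50 on the log2 scale (SE; limma, adjusted p = 0.0159), with all 4 of its libraries below all 4 whole marrows. In all, 3 of 32 members were called higher and 2 lower, where 33.1% of all genes tested were called higher and 17.2% lower. The other lower member was ENSMUSG00000119577, at 79.9, 7.05, 1.76 and 24.1 against 61.9, 103, 56.4 and 72.3, a log2 difference of −2.31 ± 0.92 (SE; limma, adjusted p = 0.0351). The higher ones were the U3 genes ENSMUSG00002074875 (2.44) and ENSMUSG00002075453 (1.64) and Gm24119. Both U3 genes lost the call with TMM scaling (limma, adjusted p = 0.0878 and 0.221), and with rows of a position summed the position of ENSMUSG00002075453 was not called either (1.46; limma, adjusted p = 0.0869). Gm24119 was at 1.82, 17.6, 11.5 and 13.1 against 0, 1.34, 1.04 and 0, which corresponds to 55 reads against 2 reads, a ratio of 19.9 per scaled read with a 95% counting interval of 5.26 to 169 (exact Clopper-Pearson, counting error only). The interval leaves out the spread between libraries. Gm24119 reached 10 in 2 AML, 0 whole marrow and 3 lineage-negative libraries, so the filter itself favoured this direction. Its whole marrow mean lay within the olfactory background range.

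No box C/D RNA and no H/ACA RNA was called by limma between the normal groups, and 1 box C/D RNA, Snord3a at 1.48, had an unadjusted p under 0.05. The median difference was 0.78 for box C/D RNAs, 0.09 for H/ACA RNAs and −0.46 for the other names, against 0.59 for all genes tested. Snora73a was nearly level, at 448 ± 128 (SD, n = 4) in lineage-negative and 446 ± 223 (SD, n = 4) in whole marrow, a log2 difference of 0.09 ± 0.47 (SE). Besides Scarna10, the libraries did not overlap for Gm24119 (higher in lineage-negative marrow, 1 of 32 where 41.1% of all genes were separated so) and for Gm25776 (lower, as Scarna10 was, 2 of 32 where 16.6% were). With TMM scaling 1 member was called higher and 5 lower, where 10.8% and 24.8% of all genes were, and those lower then included Snora74a, Gm25776 and Gm26447.

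The AML libraries differed among themselves more for these RNAs than for most genes. The median standard deviation of log2 values over the 32 members was 1.10 in AML, 1.10 in whole marrow and 1.17 in lineage-negative marrow, against 0.41, 0.48 and 0.33 for all genes tested. AML replicate 4 had the highest value for 21 of 32 members and replicate 2 was among the top 2 for 19. Replicate 7 had the lowest value for 16 and replicate 6 for 9. Relative to the median of the AML libraries, the median member was at 2.69 in replicate 4 and 0.525 in replicate 7. Among the members with another order was Gm23547, with C and D motifs and from the prohibitin gene Phb2, which was at 459 in AML replicate 3 and between 195 and 246 in the other AML libraries.

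Summed misc_RNA, ribozyme and snRNA rows were also highest in AML replicate 4, whereas summed scaRNA rows were highest in replicate 3. The biotype misc_RNA, the class of 7SK and signal recognition particle RNAs, made up 30.2% of all normalized counts in AML replicate 4 and 6.13% in replicate 7, against 6.15% to 7.88% in whole marrow and 4.10% to 8.23% in lineage-negative marrow. Of the 21 misc_RNA rows tested, 15 were called higher in AML than in lineage-negative marrow, with a median log2 difference of 2.02. So were 3 of 4 ribozyme rows, 6 of 20 snRNA rows and 2 of 7 scaRNA rows, where 17.7% of all genes tested were. Called lower was 1 snRNA row, where 12.5% of all genes were. Rmrp, the RNA of the ribosomal RNA processing enzyme RNase MRP, was higher in AML than in either reference, by 2.23 against whole marrow and 1.56 against lineage-negative marrow, whereas Rpph1, the RNA of RNase P, differed by 0.74 and 0.82 and did not pass the test. Terc, the H/ACA-type RNA of telomerase, was higher than in whole marrow by 2.37 and differed from lineage-negative marrow by 0.56, which did not pass. The misc_RNA share was highest and lowest in the same AML libraries as the median snoRNA, and its part in the results was not tested.

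With AML replicates 2 and 4 both left out, a setting added after seeing the data, 2 H/ACA RNAs, 3 box C/D RNAs and 7 other members were called higher than in whole marrow. Against lineage-negative marrow 3 H/ACA RNAs, 0 box C/D RNAs and 6 other members were then called higher by limma. The 7 members named first in that comparison (Scarna10, Snora73a, Snora73b, Snora74a, Gm23262, Gm26447 and Gm26448) passed in this setting and in all of the 25 alternatives.

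**Figure D3:**
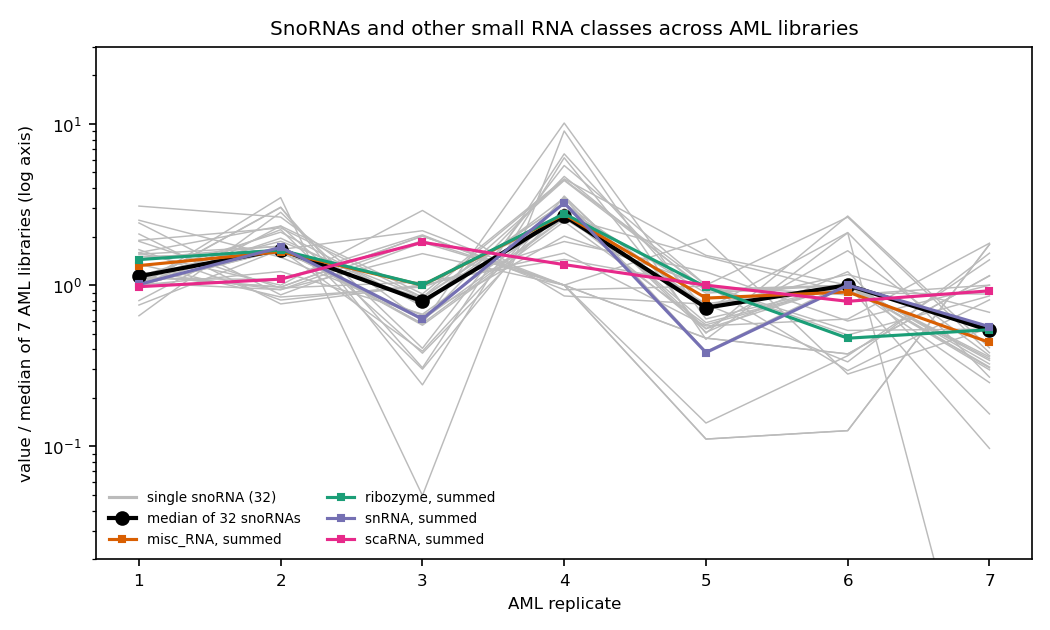
Values in the 7 AML libraries divided by the median of those libraries (log axis), with a grey line for each of 32 snoRNAs, a black line for their median and coloured lines for summed classes of other small RNAs. The black line peaks at 2.69 in replicate 4 and ends at 0.525 in replicate 7; values below the axis are not drawn.

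Most members lie inside a host gene, taken as the protein-coding or long noncoding gene on the same strand whose span in the table contains the snoRNA (the one with the highest mean where several did). A host was found for 29 members, in 23 genes, of which 22 were tested. It is defined by position alone, and whether a member is cut from its host was not tested. The U3 rows on chromosome 11 all had Tex14 as host and enter the counts below. Tex14 averaged 33.4 normalized counts in AML and 2.76 in lineage-negative marrow, the latter near the floor of 3 reads. Against lineage-negative marrow 2 of 22 host genes were called higher (Tex14 and Gsr), where 17.7% of all genes were, and 4 lower (Pabpc4, Eng, Ptcd3 and Snhg4), where 12.5% were. The median host difference was −0.64. For 25 of 28 members with a tested host, the snoRNA difference lay above that of its host, and over all 28 the median of snoRNA minus host difference was 2.25 on the log2 scale. The 28 include Gm22422, Gm24119, Gm24336, Gm25776 and Gm26236, which passed the filter only because AML libraries were counted. Their hosts were not chosen in that way, so the filter can favour the member over its host. The U3 rows in Tex14 may share reads and are not independent. Members called higher inside hosts called lower numbered 3: Snora74a with Snhg4, Snord94 with Ptcd3 and Gm22154 with Pabpc4.

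Ncapd2, the condensin gene that hosts Scarna10, averaged 4962 ± 1170 (SD, n = 7) in AML and 7652 ± 1984 (SD, n = 4) in lineage-negative marrow, a log2 difference of −0.64 ± 0.25 (SE; limma, adjusted p = 0.041). Rcc1, the host of both Snora73 genes, averaged 1120 ± 273 (SD, n = 7) in AML and 2077 ± 355 (SD, n = 4) in lineage-negative marrow, with a log2 difference of −0.92 ± 0.25 (SE; limma, adjusted p = 0.00492), just under the size that counts as called. Snhg4, a noncoding host that carries Snora74a, was lower in AML by 1.59 ± 0.22 (SE; limma, adjusted p = 8.18e-06). Pabpc4, a poly(A)-binding protein gene and the host of Gm22154, had a log2 difference of −2.17 ± 0.23 (SE; limma, adjusted p = 2.32e-07). In each of these the snoRNA difference was positive while that of the host was negative.

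Against whole marrow 8 of 22 hosts were called higher in AML, where 27.3% of all genes were, and 0 lower by limma, where 11.3% were, with a median host difference of 0.91, and 20 of 28 members lay above their host. Over all 28 members, the median of snoRNA minus host difference was 0.58. These again include the members that passed the filter only because AML libraries were counted. With TMM scaling no host was called higher. Between the normal groups 18 of 22 hosts were called higher in lineage-negative marrow, where 33.1% of all genes were, and 1 lower (Gsr), where 17.2% were. The median host difference was 1.61, and 5 of 28 members lay above their host. Across the 28 members, which share libraries and in part a host, the Pearson correlation of member and host differences was 0.23 for AML against lineage-negative marrow, 0.35 for AML against whole marrow and −0.01 between the normal groups. The table does not separate introns from exons, so a host value may hold reads of its snoRNA and the reverse.

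**Figure D4:**
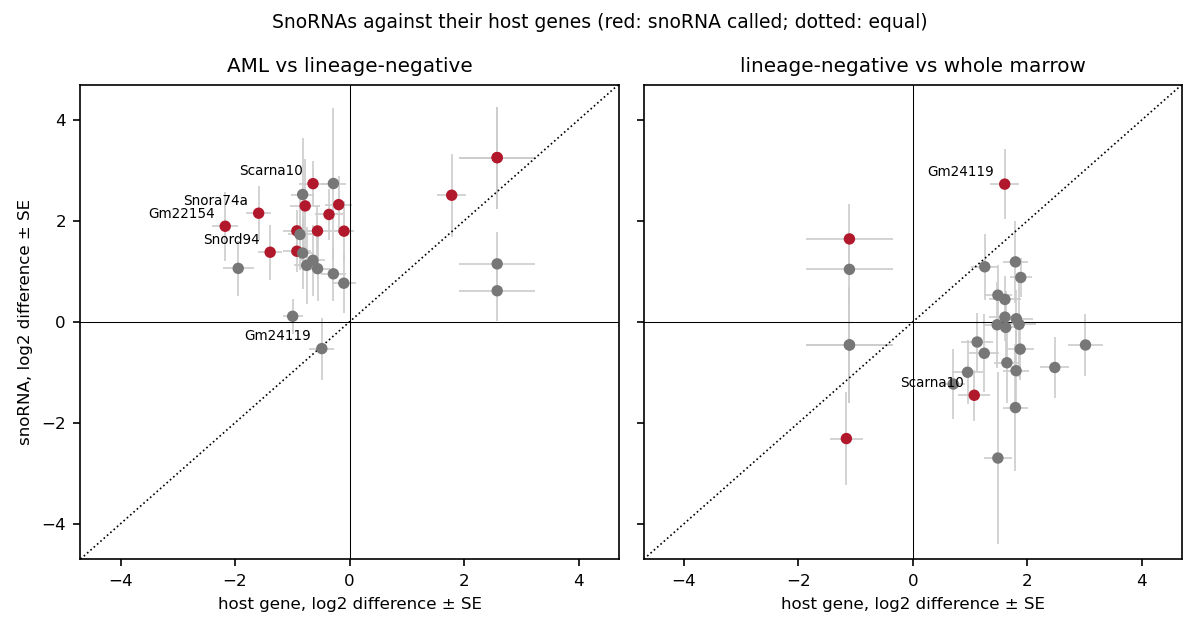
Log2 difference of each of 28 snoRNAs (vertical axis) against that of its host gene (horizontal axis), with standard errors and a dotted line of equality; red points are called snoRNAs. The left panel is AML against lineage-negative marrow, where 25 of 28 points lie above the line, and the right panel is lineage-negative against whole marrow, where 5 of 28 do. Some of the 28 passed the filter only because AML libraries were counted.

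The proteins that bind, assemble and trim snoRNAs were described from a list of 26 genes, all of which were tested. In AML against lineage-negative marrow 17 of 26 were called lower and 0 higher by limma, with 0 at an unadjusted p under 0.05 in the higher direction, where 12.5% of all genes tested were called lower. Their median log2 difference was −1.30, while that of the snoRNAs was 1.56. All 4 box C/D core proteins were lower: the methyltransferase Fbl by 1.18 ± 0.23 (SE; limma, adjusted p = 0.000288), and the scaffold proteins Nop56, Nop58 and Snu13 with log2 differences of −1.75, −1.97 and −1.03. Of the H/ACA core proteins, the pseudouridine synthase Dkc1 (−1.71), Nhp2 (−1.28) and Gar1 (−1.85) were lower, and Nop10 (−0.83) did not pass.

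Dkc1 was at 1300, 1253, 837, 1322, 1759, 1439 and 1046 normalized counts in AML and at 3169, 5104, 4156 and 4217 in lineage-negative marrow, with no overlap. Fbl was at 421, 412, 400, 495, 614, 395 and 572 in AML and at 1226, 1329, 1067 and 720 in lineage-negative marrow, also with no overlap. Both genes were highest in AML replicate 5, while 21 of 32 snoRNAs were highest in replicate 4. Of the 11 assembly factors 7 were lower, among them Nolc1 (Nopp140), with a difference of −2.03, and the H/ACA factors Naf1 (−1.47) and Shq1 (−1.32). Rrp9, the protein specific to U3, was lower by 1.55, and the Cajal body protein Coil by 1.03, while Wrap53, which brings RNAs to Cajal bodies, differed by −0.41 and did not pass. Of the genes that trim snoRNA ends, the exosome nuclease Dis3 was lower by 1.52, and the deadenylase Parn (−0.75), Exosc10 (−0.63) and Tent4b (−0.31) were not called.

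In AML against whole marrow 6 of 26 protein genes were called higher, a share below the 27.3% of all genes tested (Fbl 1.12, Nufip1 1.33, Pih1d1 1.24, Tcof1 1.49, Parn 1.23 and Rrp9 1.19) and 0 lower by limma, with 0 at an unadjusted p under 0.05 in the lower direction. With TMM scaling none of the 26 was called higher. In lineage-negative against whole marrow 25 of 26 were called higher, where 33.1% of all genes tested were, with a median log2 difference of 2.13, and 19 of 26 with TMM. Dkc1 was at 578, 922, 1172 and 1008 in whole marrow, and its log2 difference there was 2.20 ± 0.24 (SE; limma, adjusted p = 5.12e-07).

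**Figure D5:**
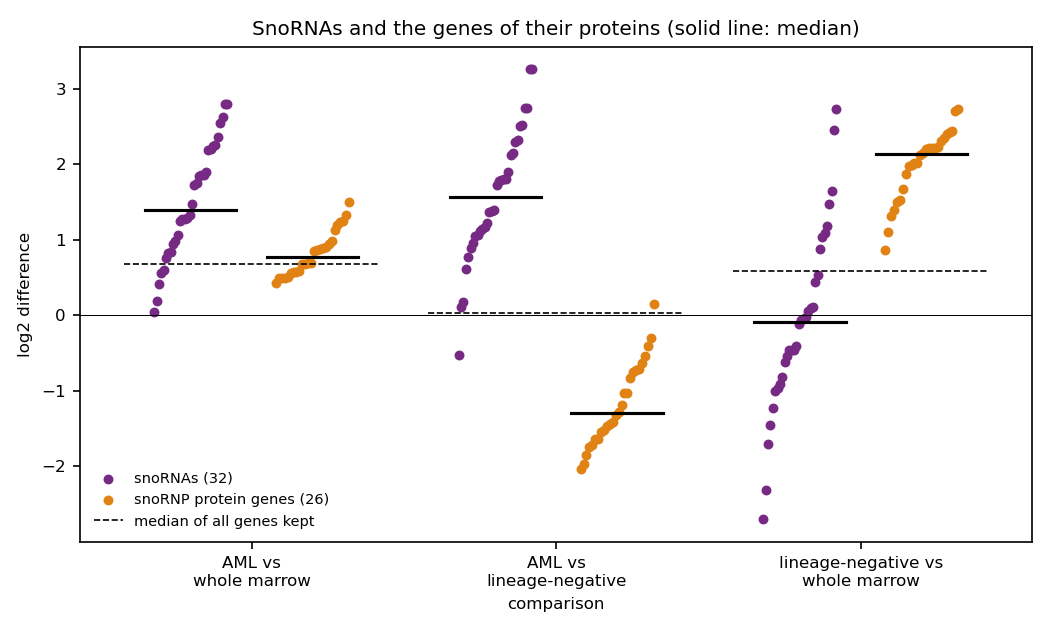
Log2 differences of the 32 snoRNAs (purple) and the 26 genes of their proteins (orange) in the 3 comparisons, with a solid line at each median and a dashed line at the median of all genes tested. In AML against lineage-negative marrow the snoRNA median is 1.56 and that of the protein genes −1.30.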

How the data were processed

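The table of normalized counts was deposited as one file for all 15 libraries. Per its name, the authors divided estimated reads per gene by DESeq2 size factors of the poscounts type, which makes the unit a signal. Per the labels, RNA was extracted with TRIzol and libraries were made with a TruSeq Stranded Total RNA kit. The submitters' processing notes name STAR, Partek, DESeq2 and mm10, with no versions. The annotation and the strand used for counting are not given in the sources used here, so reads of a snoRNA, its host and antisense genes may be mixed.

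Coordinates are from GENCODE M21 (GRCm38) unless said to be as in the table, since 0 of 25 matched members have the same start in both and all 25 the same length. Low values were whole multiples of a step in 82.2% to 87.1% of cases (tolerance 0.02 of a step), so reads could not be recovered throughout and no count test was run. Depth is the total divided by the step.

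Genes with at least 10 in at least 4 libraries (18941 of 38315) entered one limma fit (limma 3.58.1, R 4.3.3) of 3 group means on log2(value + 1), with empirical Bayes trend, two-sided tests and Benjamini-Hochberg adjustment. In simulated data for AML against whole marrow on 18941 genes, 93 of 100 genes changed by 2 and 98 of 100 changed by 3 on the log2 scale were called, with 7 unchanged genes. The changed genes were drawn from all genes above a minimum mean. The members varied more than most genes, so these shares do not give the recovery for the members. The members and lists were chosen with earlier results of these data known. The naming rule took called members with a mean of at least 50 and groups that did not overlap, up to 5 per direction and class, and gave Snora73a, Scarna10 and Gm26447. The other members were named so that every member is accounted for. The main fit did not pair libraries by replicate number. Correlations between libraries of the same number are too few to tell whether any share an animal. Alternatives were pseudocounts of 0.1 and 5, other filters, TMM, pairs of groups alone, a replicate block and leaving out libraries.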

Additional observations from a re-analysis of the deposited data

Results flagged for a closer look

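A library was singled out where the highest or lowest value of a group of 4 or 7 lay far from the nearest other value, by Dixon's test at the 95% level. The test was applied to normalized counts without a log transform. Its rate of about 1 in 20 groups by chance assumes normally distributed values, so it is only a rough guide here. Such a value was seen in 11 of 96 combinations of member and group, each time the highest of its group. Members that share most of their sequence do not count as independent. In AML replicate 4 there were 5: Snora73a at 4704 (next 2081), Snora73b at 2376 (next 1152), Snora74a at 1174 (next 553), Gm25835 at 712 (next 123) and Snord15b at 364 (next 140). In AML replicate 3 there was 1, Gm23547 at 459 (next 246).

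In lineage-negative replicate 1 there were 5: Snord17 at 1795 (next 357), Snord15b at 269.6 (next 0.0027), Gm25835 at 117 (next 22.2), Snord15a at 88.0 (next 12.3) and Gm25776 at 6.35 (next 3.92). The same library had the highest misc_RNA share of its group, 8.23%, and its part in these values was not tested.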

How the results depend on the processing

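Of the calls named for single members, 5 of 19 against whole marrow, 7 of 14 against lineage-negative marrow and 2 of 5 between the normal groups held in each of the 25 alternatives that tested the member (a mean of at least 50 leaves out low ones). The cause of the changes below was not tested.

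For AML against whole marrow, TMM gave 1 box C/D RNA, 2 H/ACA RNAs and 3 other members called higher, 0 protein genes and 0 host genes called higher and 1 host called lower. With all non-zero genes 2 H/ACA RNAs, and with a mean of at least 50, 2 box C/D RNAs were called. Without AML replicates 2 and 4 the counts were 2 H/ACA RNAs and 7 other members. A single host, 1, was called lower without AML replicates 5 and 6 and with the replicate block. For AML against lineage-negative marrow, the single box C/D call (Snord94) became 0 with a pseudocount of 0.1, with all non-zero genes, with a mean of at least 50 (which drops it), and without AML replicates 2 and 4 or 5 and 6. Other members fell to 6 without AML replicates 2 and 4, and 1 host was called higher with a mean of at least 50. Between the normal groups, TMM gave 1 H/ACA RNA and 4 other members lower, 1 other member higher and 8 hosts higher. A pseudocount of 5 gave 1 other member lower, the pair alone 2 hosts lower, and summed U3 rows 1 box C/D RNA higher.

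Leaving out each library gave, against whole marrow, 2 to 4 box C/D RNAs, 2 to 4 H/ACA RNAs, 5 to 12 other members, 3 to 10 protein genes and 1 to 10 hosts called higher and 0 to 1 hosts lower. Most of the low counts came without whole marrow replicate 1, and 2 H/ACA RNAs also without AML replicate 1, 2 or 4, while 10 protein genes came without whole marrow replicate 3. Against lineage-negative marrow the ranges were 0 to 4 box C/D RNAs (4 without lineage-negative replicate 1) and 3 to 5 H/ACA RNAs (5 without whole marrow replicate 1). Between the normal groups they were 0 to 1 box C/D RNAs in either direction, 1 to 4 other members higher and 1 to 2 lower. The H/ACA median between the normal groups ranged from −0.76 to 0.38, and it was −0.76 without whole marrow replicate 1, the 1 reversal. The replicate numbers gave correlations of −0.288 to 0.171 over 12 combinations of comparison and replicate number. In 4 of the 12, the correlation was highest with the same number. With the replicate block 37 of 38 calls of single members were the same, and Snord94 was lost.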
